A study of Sus scrofa with 18 samples.

Results

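The enzymes described here were the phase I enzymes of drug and foreign compound metabolism in pig liver, measured as transcripts in 18 growing pigs on 3 diets. The members were chosen by name from the array annotation. They comprised the named genes of the cytochrome P450 (CYP), flavin-containing monooxygenase (FMO), carboxylesterase (CES), epoxide hydrolase (EPHX), aldo-keto reductase (AKR) and alcohol dehydrogenase (ADH) families. CYP1A1, CYP1A2, CYP7A1, CYP8B1, CYP27A1 and CYP26A1 were left out, and where a gene had several probe sets, that with the highest mean of the 18 arrays was used. This gave 28 genes of the 12307 named genes on the array. All 28 symbols were those of the pig gene table of assembly Sscrofa11.1. They were 16 CYP genes, 5 AKR genes, 3 FMO genes, 2 EPHX genes and 2 ADH genes. The rule reads gene names and, for the probe set, the mean over all pigs, and it was set with earlier results of these data known.

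Phase I enzymes oxidise, reduce or hydrolyse a compound and so give it a reactive group to which conjugating enzymes can attach. Microsomal cytochromes P450 are haem proteins that receive their electrons from the flavoprotein POR, and in liver they are most abundant in the hepatocytes around the central vein. Members of the first CYP families act mainly on foreign compounds, those of the fourth on fatty acids, and most of the remaining ones on steroids, sterols, vitamin D and bile acids. Membership therefore rests on the enzyme family and not on proof that a given pig enzyme handles a drug. CYP17A1, CYP21A2, CYP24A1, CYP39A1, CYP51, CYP2R1 and AKR1D1 are known mainly for work on such endogenous compounds.

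The pigs were male crossbreds of Piétrain boars with German Landrace × German Edelschwein sows, were 5 weeks old at the start and were killed on day 29. Of the 10 pigs per diet, 6 were measured on arrays. The diet of group CON was based on soybean extraction meal and held no insect meal. In group IM5 a meal of yellow mealworm (Tenebrio molitor) larvae made up 5% of the diet and took the place of 50% of the soybean meal, and in group IM10 it made up 10% and took the place of 100%. Cellulose, oil and single amino acids were adjusted along with the insect meal, so each comparison is one of whole diets. Both insect meal groups were set against the same 6 CON pigs. Several pigs shared a pen, but pens could not be assigned to pigs, which were therefore treated as independent. The comparisons ask whether the expression of phase I enzymes in the liver differs when insect meal replaces soybean meal, and whether 5% and 10% give different levels.

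Levels are log2 expression values made by robust multi-array averaging (RMA), in which a step of 1 is a doubling. They are compared between pigs for the same probe set and never between probe sets. Array medians lay between 5.05 and 5.15 and correlations between arrays between 0.986 and 0.992. No array stood apart by these measures. Normalisation and the fixed differences between probe sets keep both measures alike, so a smaller deviation of an array would not show in them. The labelled tissue was checked with 6 measured hepatocyte markers, whose mean log2 level lay between 11.72 and 11.89 in all 18 pigs, and 0 of them met the criteria in any comparison. Of the other marker lists, all 5 measured smooth muscle markers had a higher mean in IM10 than in CON and 3 of them met the criteria, with mean list levels of 4.97 to 5.66 in CON, 5.19 to 7.41 in IM5 and 5.20 to 6.46 in IM10. All 7 T and NK cell markers had a lower mean in IM10 than in CON and 1 met the criteria, with mean list levels of 5.21 to 5.76, 4.80 to 5.46 and 5.07 to 5.60. Of 6 pericentral markers 5 had a lower mean in IM10 and 0 met the criteria. Of 5 periportal markers 3 were higher and 2 lower in IM10, with a median log2 difference of 0.06. The lower ones, ASS1 and GLS2, met the criteria (-0.40 and -0.33), and the higher ones, SDS, HAL and PCK1, did not (0.14, 0.06 and 0.18). PCK1 met them in IM5, at 1.73-fold. Of 7 endothelial markers 4 were higher and 3 lower in IM10, and CLDN5 met the criteria in both insect meal groups, at 1.21-fold in IM10, where all 6 pigs lay above all 6 controls, and 1.22-fold in IM5. In IM5 the bile duct marker SOX9 (1.21-fold) and the macrophage marker MSR1 (1.21-fold) met them too, as did TAGLN upwards and KLRK1 downwards from the smooth muscle and T and NK cell lists. The criteria are those defined below, and 2.07% of all probe sets met them in IM10 against CON and 1.92% in IM5 against CON. Complete separation of IM10 from CON was seen for 0.256% of all probe sets. The part of these cell types in the results below was not tested. Because whole tissue was measured, a lower share of a cell type and less transcript per cell cannot be told apart.

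Some well-known members of these families are not analysed here. Sscrofa11.1 lists 60 genes of the 6 families, and 28 of them had no named probe set in the annotation used here. These include all 3 CYP3A genes, which belong to the subfamily that handles the widest range of drugs in human liver. No CES gene was named either. The 1 probe set for that family in the annotation was listed with several genes and was not used. Several members lie side by side in the genome, with 0 protein-coding genes between ADH4 and ADH5, between FMO1 and FMO2 and between AKR1C1 and AKR1CL1, and 1 between CYP2C42 and CYP2C49. Probes for such near copies can bind each other's transcripts, so values of the CYP2C and AKR1C genes are uncertain as measures of a single gene.

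**Figure D1:**
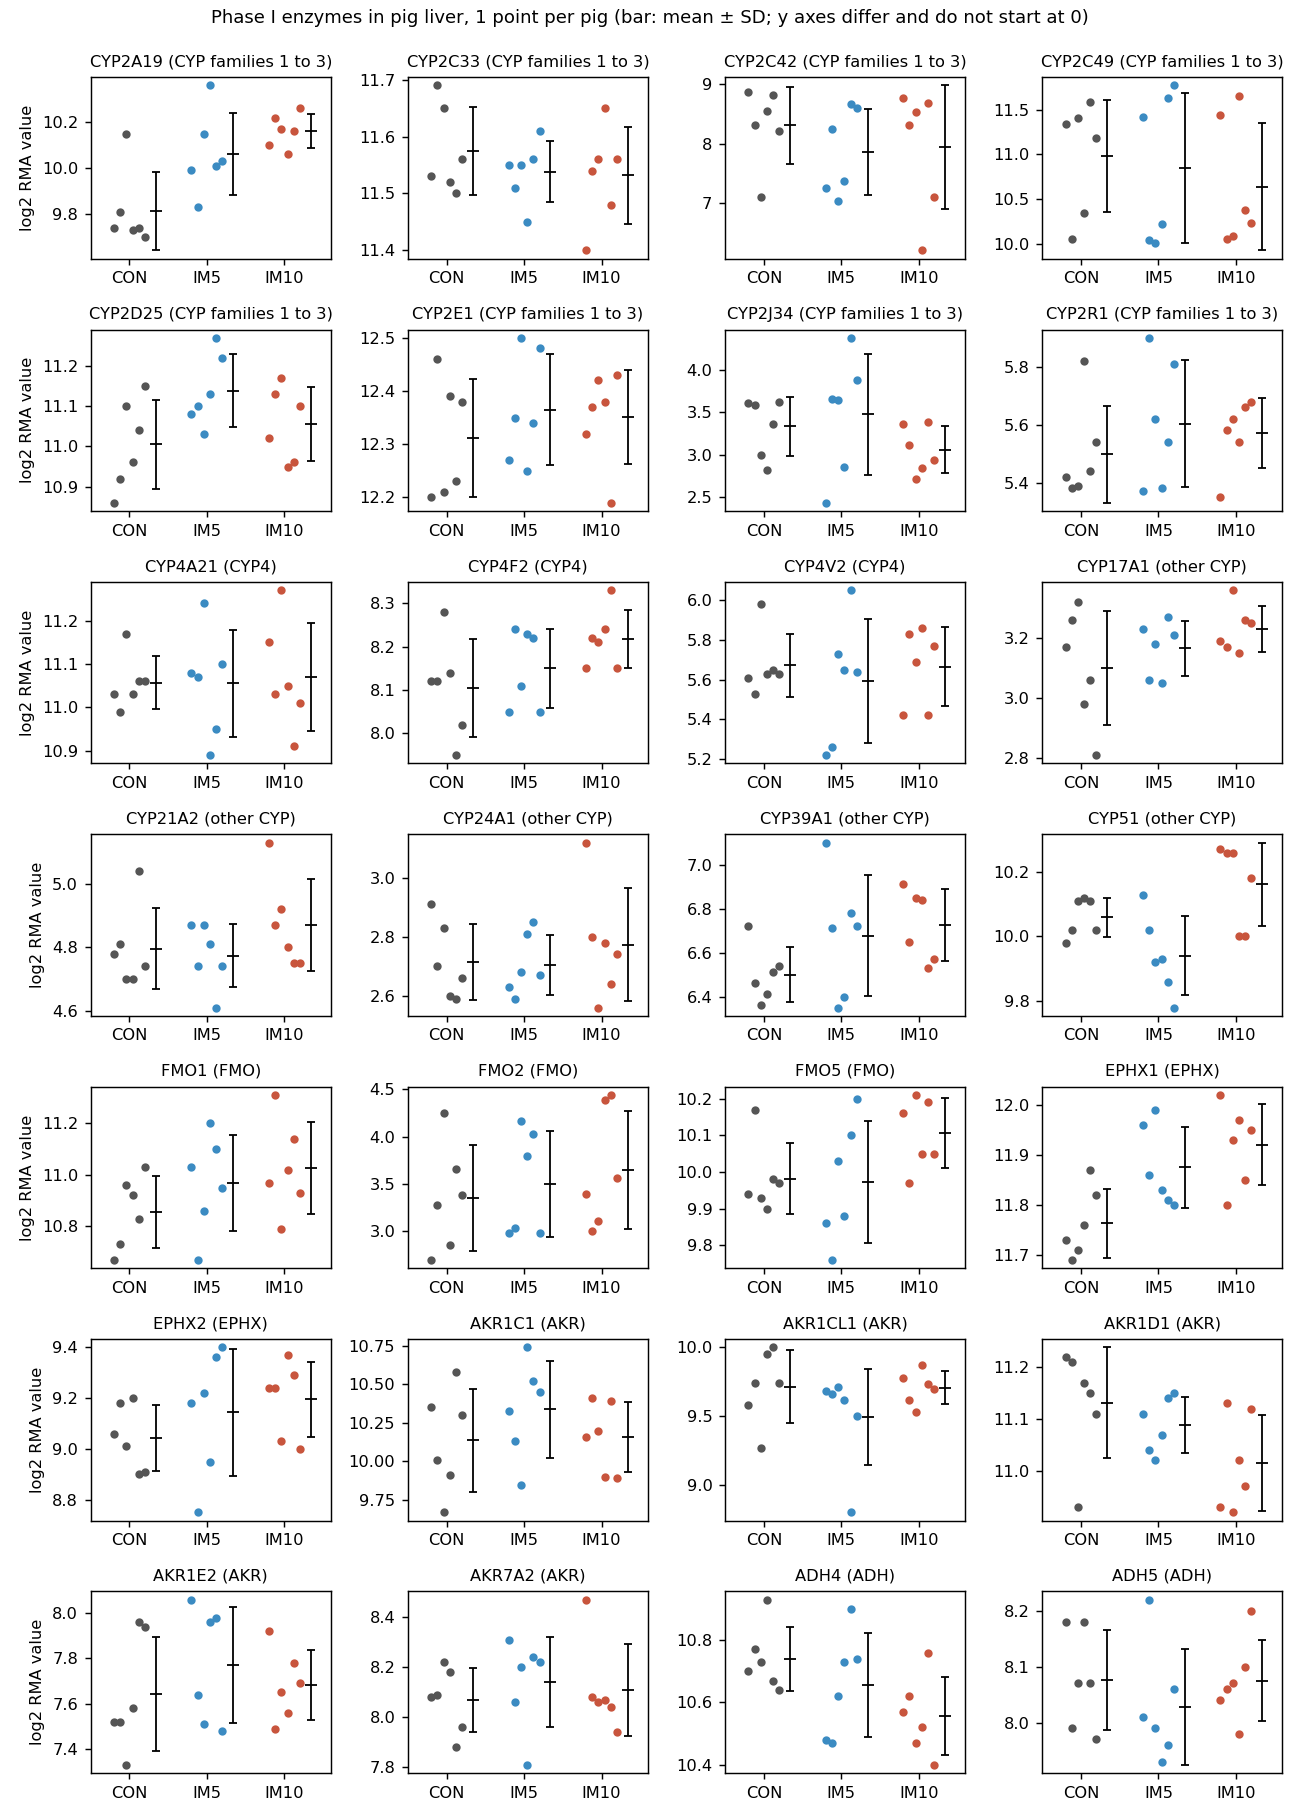
Log2 RMA value of the 28 phase I enzymes (y axis, own scale in each panel, not starting at 0) in the 6 pigs of each diet group (x axis), with 1 point per pig and a bar for the mean ± SD. The groups overlapped for all 28 enzymes, and CYP2C49 and CYP2C42 showed the widest scatter together with FMO2 and CYP2J34.

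In pigs fed the diet without soybean meal (IM10), the differences of the phase I enzymes from CON were mostly small. Without regard to direction their median size was 0.107 on the log2 scale, against 0.065 for all probe sets. A gene met the criteria used here when its fold change exceeded 1.2 and its unadjusted two-sided p in limma was below 0.05. Of the 28 enzymes 1, CYP2A19, met them, or 3.57%, against 2.07% of all 25388 probe sets. The 4 measured genes left out by name, which met them too, are not in this count and are described below. Counted by p alone there were 4 enzymes, CYP2A19, CYP39A1, EPHX1 and ADH4, or 14.3% of the members against 6.07% of all probe sets. After Benjamini-Hochberg adjustment over all probe sets 0 members and 0 probe sets passed in limma, and the smallest adjusted p of a member was 0.52. No member separated the groups completely, which 0.256% of all probe sets did.

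The direction was mixed. In IM10 19 members had a higher mean than in CON and 9 a lower one. The median log2 difference was 0.05 with a range from -0.37 to 0.35, whereas the median of all probe sets was 0.00 and 50.8% of them were higher. By family, all 3 FMO genes, both EPHX genes and all 5 of the remaining CYP genes (CYP17A1, CYP21A2, CYP24A1, CYP39A1 and CYP51) had a higher mean. ADH4 had a lower one. The 8 members of CYP families 1 to 3 were all CYP2 genes and were split 4 to 4. The size of a difference in array signal was bounded for most enzymes. For 24 of the 28 the 95% confidence interval of the difference lay within a fold change of 1.5 in both directions, and the 4 exceptions were CYP2C42, CYP2C49, CYP2J34 and FMO2. The 24 include CYP17A1, CYP21A2 and CYP24A1, whose RMA values were low, so that their narrow intervals say little about transcript amounts.

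With the lower amount of insect meal (IM5), 15 members had a higher and 13 a lower mean than in CON. The median log2 difference was 0.05 and the range -0.45 to 0.25. Without regard to direction the median size was 0.103, against 0.0667 for all probe sets. None of the members met the criteria, against 1.92% of all probe sets, and 1 of them, CYP2A19, had a limma p below 0.05 (3.57% against 5.72% of all probe sets). The smallest adjusted p was 0.863. Complete separation of the groups was seen for 0 members in IM5 against CON and 0 in IM10 against IM5, and for 0.225% and 0.213% of all probe sets. Between the insect meal diets 17 members were higher in IM10 than in IM5 and 11 were lower. None met the criteria, against 1.59% of all probe sets, and CYP51 was the 1 member with a limma p below 0.05 (3.57% against 5.4%). In a fit of the dose over all 18 arrays CYP2A19 met the criteria, against 1.87% of all probe sets, and 4 members had a limma p below 0.05, or 14.3% of them against 5.32% of all probe sets. After adjustment 0 members passed in limma, against 0.00394% of all probe sets, and the smallest adjusted p of a member was 0.653. The group means rose from CON over IM5 to IM10 for 8 members and fell for 4, while IM5 had the highest mean for 7 and the lowest for 9.

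**Figure D2:**
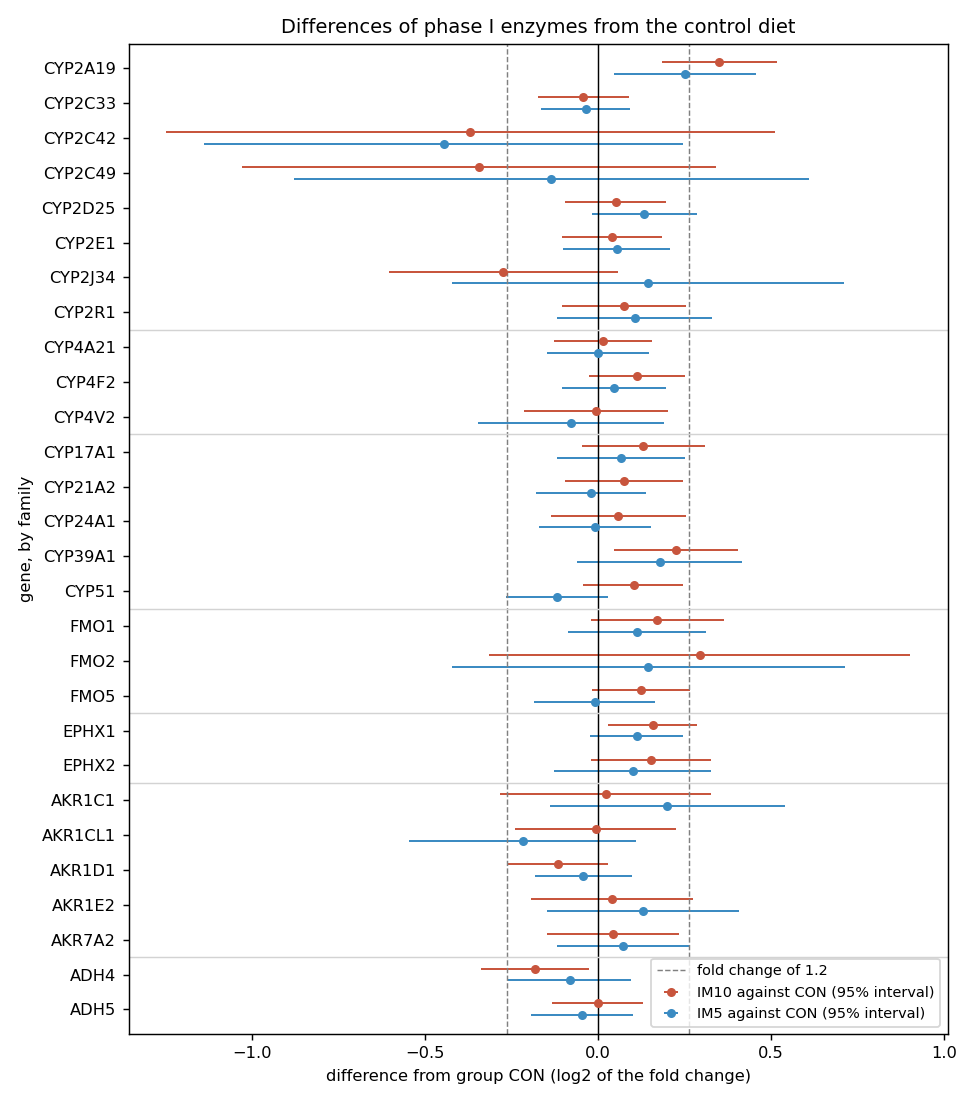
Log2 difference of each phase I enzyme from group CON (x axis) with its 95% confidence interval, for IM10 and IM5 (6 pigs against the same 6 CON pigs), by gene (y axis), with dashed lines at a fold change of 1.2. CYP2A19 in IM10 is the enzyme beyond the dashed line with an interval clear of 0, and the widest intervals belong to CYP2C42 and CYP2C49.

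CYP2A19 (probe set 15297010) is the pig member of the CYP2A subfamily and acts on coumarin and on skatole, a product of tryptophan breakdown by gut bacteria. Its log2 values in the CON pigs were 9.74, 9.81, 10.15, 9.73, 9.74 and 9.70. In IM5 they were 9.99, 9.83, 10.15, 10.36, 10.01 and 10.03, and in IM10 they were 10.10, 10.22, 10.17, 10.06, 10.16 and 10.26. All insect-fed pigs lay above the lower 5 controls, and 1 control, CON replicate 3, lay among the insect-fed pigs.

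The CYP2A19 mean rose by 0.35 on the log2 scale from 9.81 ± 0.17 in CON to 10.16 ± 0.07 in IM10 (SD, n = 6), which is 1.27-fold with a 95% interval of 0.18 to 0.52 for the log2 difference. The two-sided exact permutation test gave p = 0.00649 and limma an adjusted p of 0.52. In IM5 the mean was 10.06 ± 0.18, or 1.19-fold above CON (95% interval 0.04 to 0.46, exact permutation p = 0.0433, limma adjusted p = 0.863), just under the fold criterion. IM10 exceeded IM5 by 0.10 (exact permutation p = 0.247), so the insect meal diets could not be told apart. The dose fit gave a log2 rise of 0.35 between 0 and 10% insect meal (limma adjusted p = 0.653). The difference between IM10 and CON ranged from 0.33 to 0.42 when each pig was left out in turn, and CYP2A19 met the criteria each time. In IM5 it met them without CON replicate 3 (0.32), without IM5 replicate 1 (0.26) or without IM5 replicate 2 (0.30).

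The other members of CYP families 1 to 3, all of them CYP2 genes, did not meet the criteria in either comparison with CON. CYP2E1 (15235020), which oxidises ethanol and small solvents, had log2 means of 12.31 ± 0.11 in CON, 12.37 ± 0.10 in IM5 and 12.35 ± 0.09 in IM10, and the difference between IM10 and CON was 0.04 with a 95% interval of -0.10 to 0.18. CYP2C33 (15233862), of the subfamily that handles many drugs in human liver, had means of 11.58 ± 0.08, 11.54 ± 0.05 and 11.53 ± 0.08, with a difference of -0.04 (-0.17 to 0.09). For both enzymes these intervals lay within the fold criterion in both directions.

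CYP2D25 (15291169) is known in pigs as a vitamin D hydroxylase. All 6 IM5 pigs lay above its CON mean of 11.01 ± 0.11, and the IM5 mean was 11.14 ± 0.09, a difference of 0.13 (exact permutation p = 0.0584), while IM10 differed from CON by 0.05 (exact permutation p = 0.42). CYP2R1 (15262906), a hydroxylase that starts the activation of vitamin D, differed from CON by 0.07 in IM10 and 0.11 in IM5 (exact permutation p = 0.422 and 0.372).

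CYP2J34 (15306590) belongs to a subfamily that in human oxidises arachidonic acid. Its log2 values ran from 2.82 over a median of 3.47 to 3.62 in CON, from 2.43 over 3.66 to 4.38 in IM5 and from 2.71 over 3.03 to 3.38 in IM10. All 6 IM10 pigs lay below the IM5 mean, but the ranges of the groups overlapped. IM10 differed from CON by -0.28 (95% interval -0.61 to 0.06, exact permutation p = 0.162) and from IM5 by -0.42 (exact permutation p = 0.203). Whether the criteria were met depended on single pigs. CYP2J34 met them against CON without CON replicate 3 (-0.34) or CON replicate 4 (-0.38), and against IM5 without IM5 replicate 1 (-0.63). These values are low on the RMA scale, where detection calls were not analysed here.

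CYP2C49 and CYP2C42 varied more from pig to pig than between diets. These neighbouring genes belong to the CYP2C subfamily, and the role of each pig enzyme is not stated here. CYP2C49 (15227776) had log2 values of 11.34, 10.06, 11.41, 10.35, 11.58 and 11.18 in CON. It had values of 11.42, 10.05, 10.01, 10.22, 11.63 and 11.77 in IM5 and of 11.44, 10.06, 10.09, 11.65, 10.38 and 10.23 in IM10. No pig lay between 10.38 and 11.18, a gap of 0.80. On the upper side of it stood 9 pigs, 4 from CON, 3 from IM5 and 2 from IM10, and 9 pigs stood below it.

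CYP2C42 (15227779) had log2 values of 8.86, 8.32, 7.10, 8.54, 8.81 and 8.21 in CON. It had values of 7.25, 8.25, 7.03, 7.37, 8.66 and 8.60 in IM5 and of 8.77, 8.31, 8.53, 6.21, 8.69 and 7.11 in IM10. No pig lay between 7.37 and 8.21, a gap of 0.84, with 12 pigs above it (5, 3 and 4 from CON, IM5 and IM10) and 6 below. The genes did not share their upper pigs. Of the 18 pigs 6 were on the upper side for both, 3 on the lower side for both, 3 on the upper side for CYP2C49 alone and 6 for CYP2C42 alone.

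A gap of at least 0.5 with at least 3 pigs on each side, a description chosen after the values had been seen, was found for 2 of the 28 members and for 75 of all 25388 probe sets (0.295%). The SD between pigs of the same diet, pooled over diets, was 0.82 for CYP2C42 and 0.73 for CYP2C49, larger than that of 99.8% and 99.7% of all probe sets. Means over these groups mix the levels and describe no single pig. They were 10.99 ± 0.63, 10.85 ± 0.84 and 10.64 ± 0.71 for CYP2C49 in CON, IM5 and IM10, and IM10 differed from CON by -0.35 (95% interval -1.03 to 0.34, exact permutation p = 0.465). For CYP2C42 they were 8.31 ± 0.65, 7.86 ± 0.73 and 7.94 ± 1.04, and the differences from CON were -0.37 in IM10 (-1.25 to 0.51, exact permutation p = 0.494) and -0.45 in IM5 (-1.14 to 0.25, exact permutation p = 0.307). Without CON replicate 3, the 1 control below the gap, CYP2C42 met the criteria in IM5 with a difference of -0.69. With all pigs kept, no difference between diets was detectable for CYP2C49 or CYP2C42 with 6 pigs per group.

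**Figure D3:**
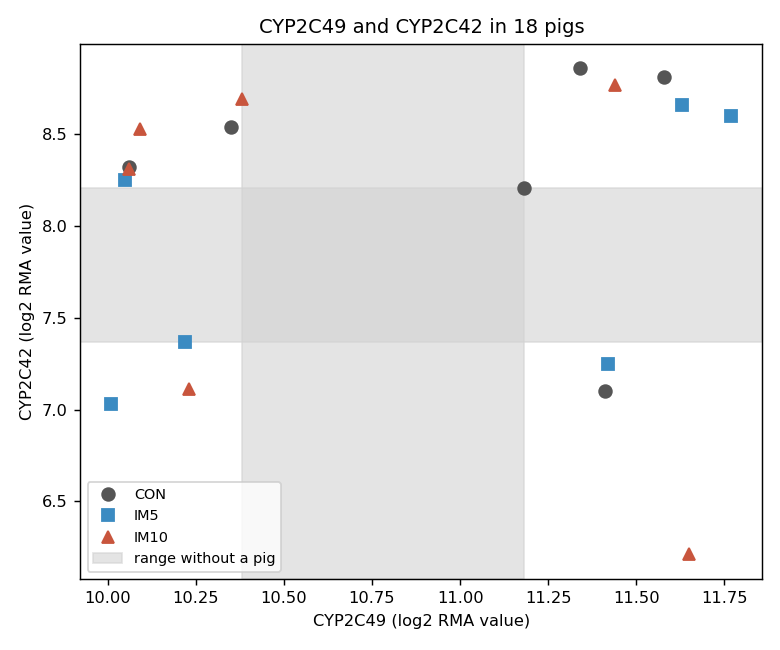
CYP2C42 against CYP2C49 (log2 RMA values on both axes) in the 18 pigs, with 1 symbol per pig, shape and colour for the diet group, and grey bands for the ranges in which no pig lay. The bands run from 10.38 to 11.18 for CYP2C49 and from 7.37 to 8.21 for CYP2C42, and pigs of all 3 diets stand on each side of both.

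The CYP4 genes, fatty acid hydroxylases, hardly differed between the diets, and 0 of 3 met the criteria. CYP4A21 (15300910), which in pigs hydroxylates bile acids, had log2 means of 11.06 ± 0.06, 11.06 ± 0.12 and 11.07 ± 0.13 in CON, IM5 and IM10, and its IM10 difference from CON was 0.01 with a 95% interval of -0.13 to 0.16. CYP4F2 (15257439), which in human acts on vitamin K and leukotrienes, had the means 8.11 ± 0.11, 8.15 ± 0.09 and 8.22 ± 0.07. All 6 IM10 pigs lay above the CON mean of CYP4F2, with a difference of 0.11 (exact permutation p = 0.0779). CYP4V2 (15235773), whose pooled SD of 0.23 was among the 8 largest of the members, differed from CON by -0.01 in IM10 and -0.08 in IM5 (exact permutation p = 0.959 and 0.63).

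Among the CYP enzymes of sterols, steroids and vitamin D, CYP39A1 and CYP51 had the smallest p-values. CYP39A1 (15310214), an oxysterol hydroxylase of bile acid synthesis, ran from 6.36 over a median of 6.49 to 6.72 in CON, from 6.35 over 6.72 to 7.10 in IM5 and from 6.53 over 6.75 to 6.91 in IM10. All 6 IM10 pigs lay above the CON mean and 3 above the highest CON pig. The difference was 0.23 (1.17-fold, 95% interval 0.05 to 0.40, exact permutation p = 0.0325, limma adjusted p = 0.761), under the fold criterion. It met the criteria without CON replicate 1 (0.27) or without IM10 replicate 5 (0.26), and in the dose fit without either of them (0.26 and 0.27). In IM5 the difference was 0.18 (exact permutation p = 0.19).

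CYP51 (15331264), the lanosterol demethylase of cholesterol synthesis, was singled out after its values were seen. It was the member whose IM5 and IM10 means lay on opposite sides of CON with the smallest p between them. Its log2 values were 9.98, 10.02, 10.11, 10.12, 10.11 and 10.02 in CON. They were 10.13, 10.02, 9.92, 9.93, 9.86 and 9.78 in IM5 and 10.27, 10.26, 10.26, 10.00, 10.00 and 10.18 in IM10. In IM5 4 pigs lay below the lowest control and in IM10 4 lay above the highest. IM10 exceeded IM5 by 0.22 (1.17-fold, 95% interval 0.06 to 0.39, exact permutation p = 0.0173, limma adjusted p = 0.881). The differences from CON were -0.12 in IM5 and 0.10 in IM10 (exact permutation p = 0.0649 and 0.0974), and none of the 3 met the criteria.

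The other members of this group encode steroid and vitamin D hydroxylases whose main sites are outside the liver. CYP17A1 (15234105) differed from CON by 0.13 in IM10, with all 6 IM10 pigs above the CON mean (exact permutation p = 0.152). CYP21A2 and CYP24A1 differed by 0.08 and 0.06 (exact permutation p = 0.379 and 0.584). All 3 had low RMA values, with CON means of 3.10, 4.80 and 2.72 on the log2 scale.

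The FMO genes encode enzymes that oxidise nitrogen and sulphur atoms of drugs and amines. All 3 had a higher mean in IM10 than in CON and 0 met the criteria. FMO1 (15326817) ran from 10.67 over a median of 10.88 to 11.03 in CON, from 10.67 over 10.99 to 11.20 in IM5 and from 10.79 over 10.995 to 11.31 in IM10, and the groups overlapped broadly. Its difference from CON was 0.17 in IM10 and 0.11 in IM5 (exact permutation p = 0.102 and 0.266). FMO5 (15281158) had means of 9.98 ± 0.10, 9.97 ± 0.17 and 10.11 ± 0.10, and 5 of 6 IM10 pigs lay above the CON mean, with a difference of 0.12 (exact permutation p = 0.0606). FMO2 (15326808), known as the lung form, ran from 2.70 to 4.25 in CON, from 2.98 to 4.17 in IM5 and from 3.00 to 4.44 in IM10. Its pooled SD of 0.58 exceeded that of 99.4% of all probe sets, and its difference of 0.29 had a 95% interval of -0.32 to 0.90. The FMO2 values, like those of CYP2J34, are low on the RMA scale.

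Both epoxide hydrolases had higher means in the insect-fed groups. EPHX1 (15199982) is the microsomal form that opens the epoxides left by cytochromes P450. Its log2 values were 11.73, 11.69, 11.71, 11.76, 11.87 and 11.82 in CON, 11.96, 11.86, 11.99, 11.83, 11.81 and 11.80 in IM5, and 12.02, 11.80, 11.93, 11.97, 11.85 and 11.95 in IM10. Every insect-fed pig lay above the CON mean of 11.76, and 4 IM10 and 2 IM5 pigs lay above the highest CON pig. The difference from CON was 0.16 in IM10 (1.11-fold, 95% interval 0.03 to 0.28, exact permutation p = 0.0108, limma adjusted p = 0.779). In IM5 it was 0.11 (1.08-fold, 95% interval -0.02 to 0.25, exact permutation p = 0.0346, limma adjusted p = 0.884). Both stayed under the fold criterion, and the dose fit gave a log2 rise of 0.16 over 10% (limma adjusted p = 0.893). EPHX2 (15223489), the soluble form that acts on fatty acid epoxides, had means of 9.04 ± 0.13, 9.14 ± 0.25 and 9.20 ± 0.15. Of its IM10 pigs 4 lay above the highest control, and the difference was 0.15 (exact permutation p = 0.0909).

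The aldo-keto reductases, which reduce aldehydes and ketones of drugs and steroids, did not shift together, and 0 of 5 met the criteria in any comparison. AKR1D1 (15252178), the reductase that shapes the steroid ring in bile acid synthesis, had means of 11.13 ± 0.11, 11.09 ± 0.05 and 11.02 ± 0.09. All 6 IM10 pigs lay below its CON mean, with a difference of -0.12 (exact permutation p = 0.0823). AKR7A2 (15304936), which reduces the dialdehyde of aflatoxin, differed from CON by 0.04 in IM10 and 0.07 in IM5 (exact permutation p = 0.721 and 0.459). AKR1CL1 (15203215) and AKR1E2 (15203223) had pooled SDs of 0.26 and 0.23 between pigs. In IM10 AKR1CL1 differed from CON by -0.01 and AKR1E2 by 0.04, with exact permutation p-values of 0.961 and 0.758.

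AKR1C1 was the member whose probe sets disagreed. The symbol covers 2 gene numbers in the annotation, and the chosen probe set (15201391) and the other probe sets (15201407 and 15201427, which held identical values) belong to different ones. The chosen probe set had means of 10.14 ± 0.33, 10.34 ± 0.31 and 10.16 ± 0.23, and IM10 differed from IM5 by -0.18 (exact permutation p = 0.29). The other probe sets had means of 9.43 ± 0.13, 9.33 ± 0.14 and 9.51 ± 0.06, and IM10 differed from IM5 by 0.18 in the opposite direction (exact permutation p = 0.0108, limma adjusted p = 0.881). Over the 18 arrays the chosen and the other values correlated at r = -0.43. Without IM5 replicate 3 the chosen AKR1C1 probe set met the criteria between IM10 and IM5 (-0.28).

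Of the alcohol dehydrogenases ADH4 had a lower mean in both insect meal groups and ADH5 stayed at the control level in IM10. ADH4 (15321691), which oxidises retinol and long-chain alcohols, had log2 values of 10.70, 10.77, 10.73, 10.93, 10.67 and 10.64 in CON. They were 10.48, 10.47, 10.62, 10.73, 10.90 and 10.74 in IM5 and 10.57, 10.62, 10.47, 10.52, 10.76 and 10.40 in IM10. Of the IM10 pigs 5 lay below the lowest control, and in IM5 3 did. The difference from CON was -0.18 in IM10 (1.14-fold lower, 95% interval -0.34 to -0.03, exact permutation p = 0.0216, limma adjusted p = 0.793) and -0.08 in IM5 (exact permutation p = 0.333), both under the fold criterion. Leaving out each pig in turn gave limma p-values of up to 0.0604 for ADH4 in IM10. ADH5 (15321699), the glutathione-dependent formaldehyde dehydrogenase found in all cells, had means of 8.08 ± 0.09, 8.03 ± 0.10 and 8.08 ± 0.07, with a difference of 0.00 in IM10 (exact permutation p = 1.0).

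Members did not vary together from pig to pig beyond what other probe sets showed. Over the 378 pairs of members, the correlation of the deviations from the diet means over 18 pigs had a median r of 0.02 and ran from -0.62 to 0.65, and the median over pairs of all probe sets was 0.00. All pairs share the same 18 arrays. By permutation within diets 24 pairs (6.35%) had an unadjusted p below 0.05 and 0 pairs after adjustment, the smallest adjusted p being 0.665. The closest positive pairs were ADH5 with CYP2R1 (r = 0.65, permutation p = 0.00743, rho = 0.59, permutation p = 0.0174) and ADH4 with EPHX2 (r = 0.65, permutation p = 0.0116, rho = 0.70, permutation p = 0.00609). Without the 2 pigs farthest from the median these r values were 0.50 and 0.61. Within CON, IM5 and IM10 they were 0.43, 0.82 and 0.60 for ADH5 with CYP2R1 and 0.85, 0.60 and 0.66 for ADH4 with EPHX2. An r beyond 0.6 in size was found in 1.06% of member pairs and 1.96% of pairs of all probe sets.

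**Figure D4:**
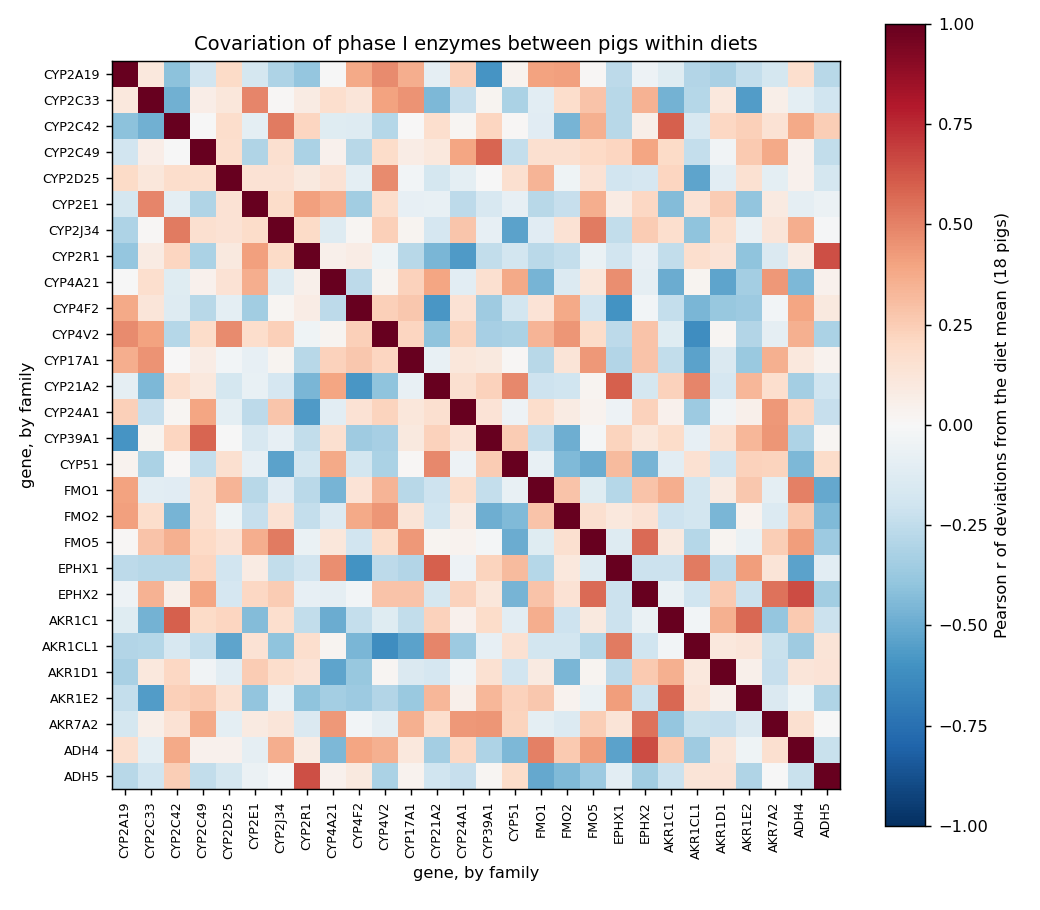
Pearson r between the deviations of each pair of phase I enzymes from their diet means over 18 pigs (both axes list the 28 genes by family, colour gives r from -1 to 1). Values ran from -0.62 to 0.65 with a median of 0.02, and no family forms a block of like colour.

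The other genes of the pathway were described from 3 lists. In the list of electron donors and haem enzymes, which supply the P450 reaction, 14 of 23 genes were measured. In IM10 3 were higher and 11 lower than in CON, with a median of -0.03, and 1 met the criteria with a lower value. In IM5 8 were higher and 6 lower, with a median of 0.01 and 0 that met them. The gene that met them was ALAS1 (15220254), which encodes the rate-limiting enzyme of haem synthesis in liver. Its log2 values were 10.02, 9.86, 10.01, 10.03, 9.79 and 10.17 in CON and 9.42, 9.51, 10.00, 9.56, 9.47 and 9.75 in IM10. In IM5 they were 9.88, 9.86, 9.86, 8.73, 10.86 and 10.83, so that 3 IM5 pigs stood far from the other 3. ALAS1 fell by 0.36 on the log2 scale in IM10 (exact permutation p = 0.00866, limma adjusted p = 0.624), while IM5 differed from CON by 0.02 (exact permutation p = 0.985). When the spread was taken from all 18 arrays, the wide IM5 group included, the same difference in IM10 had a limma p of 0.151 and no longer met the criteria. IM10 met the criteria against IM5 without IM5 replicate 4 (-0.64), where the value with all pigs was -0.39.

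Of 26 regulators of these genes 22 were measured, 13 of them higher and 9 lower in IM10 and likewise in IM5, with medians of 0.03 and 0.05. The xenobiotic receptors NR1I2 and NR1I3 differed from CON by 0.04 and 0.02 in IM10 (exact permutation p = 0.556 and 0.771). FOXA2 (15248511), a transcription factor of hepatocytes, was the 1 regulator that met the criteria against CON. Its log2 values were 5.67, 5.65, 5.88, 5.76, 5.93 and 5.81 in CON, 6.30, 6.01, 6.14, 6.10, 6.02 and 5.73 in IM5, and 6.05, 6.34, 6.03, 6.63, 6.07 and 5.92 in IM10. FOXA2 rose 1.31-fold in IM10 (exact permutation p = 0.00433, limma adjusted p = 0.629) and by 0.27 on the log2 scale in IM5 (exact permutation p = 0.0173). In IM5 it was so close to the fold criterion that it fell short of it without CON replicate 1, 2 or 4 or IM5 replicate 1, 3 or 4, with log2 differences from 0.22 to 0.26.

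The list of other phase I enzymes held 30 symbols, with MARC1 and MTARC1, and likewise MARC2 and MTARC2, as old and new symbols of the same gene. Of these symbols 16 were measured, 11 higher and 5 lower in IM10 with a median of 0.03, and 9 higher and 7 lower in IM5 with a median of 0.03. The 1 that met the criteria in each was NQO1 (15295944), a quinone reductase. Its log2 values were 5.54, 5.55, 5.77, 5.53, 5.78 and 5.44 in CON, 5.56, 6.00, 5.64, 5.87, 6.36 and 6.04 in IM5, and 5.75, 6.57, 5.86, 6.10, 5.69 and 6.05 in IM10. NQO1 rose 1.32-fold in IM10 (exact permutation p = 0.0152, limma adjusted p = 0.68) and 1.24-fold in IM5 (exact permutation p = 0.0411). Without IM5 replicate 5 it was 0.22 in IM5 and fell short of the fold criterion. For the whole array the share meeting the criteria was 1.27% upwards and 0.8% downwards in IM10 and 1.12% and 0.804% in IM5.

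**Figure D5:**
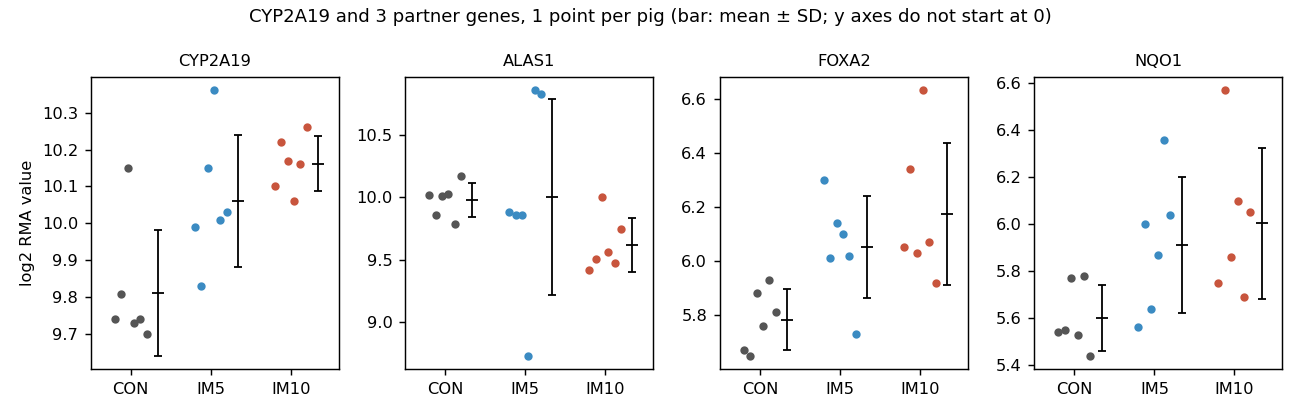
Log2 RMA values (y axis, own scale in each panel, not starting at 0) of CYP2A19, ALAS1, FOXA2 and NQO1 in the 6 pigs of each diet group (x axis), with 1 point per pig and a bar for the mean ± SD. CYP2A19, FOXA2 and NQO1 lay higher in IM10 than in CON, ALAS1 lay lower, and the 6 IM5 pigs of ALAS1 ran from 8.73 to 10.86.

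Of the genes left out by name, 4 were found on the array. CYP1A2 was 1.30-fold and CYP1A1 1.23-fold higher in IM10 than in CON (exact permutation p = 0.00649 and 0.0411), CYP7A1 was 1.29-fold higher (exact permutation p = 0.0368) and CYP26A1 1.32-fold lower (exact permutation p = 0.013). All 4 met the criteria in IM10, against 2.07% of all probe sets. CYP1A1 did not without CON replicate 3 (0.25), CON replicate 6 (0.26) or IM10 replicate 2 (0.20). Another CYP1A1 probe set (15311133) met the criteria in IM10 too, with a log2 difference of 0.29 (exact permutation p = 0.0909). In IM5 CYP1A2 met the criteria (1.32-fold, exact permutation p = 0.00433). There CYP1A1, CYP7A1 and CYP26A1 did not, with log2 differences of 0.33, 0.01 and -0.05. In the paper, mRNA levels measured by qPCR in 10 pigs per group were lower in IM10 for CYP26A1 and did not differ between groups for CYP7A1. The paper also listed CYP26A1 as 1.32-fold lower in IM10 on the arrays.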

How the data were processed

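Liver RNA of 18 pigs was hybridised to Affymetrix Porcine Gene 1.0 ST arrays, 1 array per pig. The deposited values are log2 expression values that the authors made by RMA in Affymetrix Expression Console, whose version is not given in the sources used here. The annotation gave a single gene symbol to 13257 of the 25388 probe sets, which were named, and listed 427 with several genes and 11704 not at all. Gene numbers were checked against the Sscrofa11.1 table, which served for names and neighbours.

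Pairs of groups (6 against 6) were compared with limma 3.58.1 in R 4.3.3 over all probe sets on the 12 arrays, without covariate. The criteria (fold over 1.2, unadjusted p under 0.05) follow the study's methods. Benjamini-Hochberg adjustment covered all probe sets. Single genes were given two-sided exact permutation tests (924 arrangements, smallest p 0.00216), 84 for the members, unadjusted. The dose fit used all 18 arrays. Scripts were tested on simulated data.

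The members and the lists of partner and marker genes were chosen with earlier results of these data known. Genes were named if they met the criteria, had one of the 2 smallest p-values of their family in IM10 against CON or one of the 8 largest SDs between pigs, and others after their values were seen. Alternatives were the methods' t-test, 1 fit over all arrays, other normalisations, other probe set choices, a filter on dim probe sets, a replicate block and leaving out each pig. Detection calls were not analysed here, and the number of arrays limits the precision. The labels do not say whether replicate numbers pair the pigs.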

Additional observations from a re-analysis of the deposited data

Results flagged for a closer look

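A pig that stood apart from the other 5 of its diet group (Dixon's criterion) was found in 8 of 84 groups of a member and a diet. The nominal rate of the criterion, for independent and normally distributed values, is about 1 in 20. The 84 groups share the same 18 pigs and no rate over all probe sets was computed, so an excess over chance was not shown. Of the 8, 3 concerned CON replicate 3. This pig was high for CYP2A19 at 10.15, with the next control at 9.81, high for CYP4V2 at 5.98 against 5.65, and low for CYP2C42 at 7.10 against 8.21. In the other controls, CYP21A2 was 5.04 in CON replicate 5 against 4.81, CYP2R1 was 5.82 in CON replicate 4 against 5.54, and FMO5 was 10.17 in CON replicate 2 against 9.98. In the insect-fed groups, AKR1CL1 was 8.80 in IM5 replicate 5, with the next pig at 9.50, and AKR7A2 was 8.47 in IM10 replicate 1 against 8.08. All are log2 values.

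CYP51 had the smallest unadjusted p of the 28 members between the insect meal diets and was singled out for it. IM10 lay 0.222 above IM5 on the log2 scale (two-sided exact permutation p = 0.0173), with IM10 above and IM5 below the CON mean. The limma adjusted p over all probe sets was 0.881 and the criteria were not met, so a difference between the effects of the diets was not established.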

How the results depend on the processing

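The number of members that met the criteria was 1 in IM10 against CON, 0 in IM5 against CON, 0 in IM10 against IM5 and 1 in the dose fit under every alternative other than leaving out a pig, with 1 exception. With the replicate number as a block it was 2 in IM10 against CON, where CYP2J34 was added (-0.275). The block changed no other call of a member. Same-numbered arrays correlated between -0.144 and 0.201 in their deviations from the group means. Differently numbered arrays were not compared, so this range does not show whether the numbers pair the pigs. Leaving out each pig in turn gave 1 to 2 members in IM10 against CON (2 without CON replicate 1, 3 or 4 or IM10 replicate 5), 0 to 2 in IM5 against CON (2 without CON replicate 3, 1 without IM5 replicate 1 or 2), 0 to 1 in IM10 against IM5 (1 without IM5 replicate 1 or 3) and 1 to 2 in the dose fit (2 without CON replicate 1 or IM10 replicate 5). The median difference of the members then ran from 0.033 to 0.068 in IM10 and from 0.018 to 0.062 in IM5. No value of a single gene changed sign with its call. Some differences that were not called did change sign. For AKR1C1, whose probe sets disagreed, the alternatives other than leaving out a pig gave -0.181 to 0.058 in IM10 against IM5. In IM5 against CON they gave -0.001 to 0.2 for this gene. Of the genes that are no members, FOXA2 in IM5 fell short of the fold criterion after median centring (0.257), and ALAS1 and CYP1A1 in IM10 no longer met the criteria with 1 fit over all 18 arrays (-0.362 and 0.293). CYP1A1 met them in IM5 with that fit or the block (0.327) and in the dose fit with the block (0.293), and CYP7A1 no longer met them with the methods' t-test in IM10 against IM5 (0.363) or with ordinary regression on the dose (0.372). The filter on dim probe sets left 23 of the 28 members. The cause of these changes was not tested.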
